A study of Mus musculus with 20 samples.

Results

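Interferon-stimulated genes were followed in the mouse abdominal aorta as a set of 9 genes, chosen by name: Stat2, Irf7, Ifit1, Ifit2, Ifit3, Rsad2, Oasl2, Bst2 and Usp18. All 9 were found by Ensembl identifier in each of the 20 deposited libraries, among 43422 genes. RNA of the abdominal aorta was sequenced from 5 mice in each of 4 groups: wild-type (WT) mice given saline, WT mice given angiotensin II (Ang II), Plod1-/- mice given saline and Plod1-/- mice given Ang II. Ang II was infused at 1000 ng/kg per min from subcutaneous osmotic pumps, and both treatments lasted 14 days. Plod1 encodes lysyl hydroxylase 1 (LH1), which hydroxylates lysines of collagen, and the knockout is whole-body. Every group was on the C57BL/6 background (C57Bl/6NCrl in the study's methods) with an age label of 6 months, an age that differs from the one in the study's methods, and the methods describe male littermates. Replicates are separate libraries, taken here as 1 mouse each. The comparisons asked whether Ang II or the loss of LH1 went with a different level of these genes, and whether Ang II acted differently in the 2 genotypes.

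Interferons are cytokines secreted by cells that sense viral or misplaced nucleic acid. Type I interferons bind the receptor Ifnar1/Ifnar2 and activate the kinases Jak1 and Tyk2, and a complex that contains Stat2 and Irf9 then binds the interferon-stimulated response element (ISRE) in the promoters of target genes. The targets include further transcription factors such as Irf7, antiviral effectors such as the Ifit proteins, and inhibitors such as Usp18. In an artery wall these genes can be expressed by smooth muscle cells, endothelium, fibroblasts and immune cells alike. Tissue RNA cannot tell a change in the number of cells of a type from a change in RNA per cell.

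The ISRE core was searched for in the promoters because it is the sequence that the members could share. RefSeq promoters (GRCm38.p6) were matched for 8 of the 9 members, all but Usp18, and the 250 bases before each start were searched on both strands for GAAA and GAAA with any 2 bases between them. The motif was present in 5 of the 8 members, Ifit1, Ifit3, Rsad2, Bst2 and Stat2, and in 2.98% of 32851 promoters of the table. It was not found in these windows of Ifit2, Irf7 or Oasl2. Ifit1, Ifit3 and Bst2 each held 2 copies, which overlap in Bst2. The windows around the matches are printed 5′ to 3′ along the gene's own strand, with the motif in capitals, so that GAAA and TTTC forms show its orientation.
Ifit1: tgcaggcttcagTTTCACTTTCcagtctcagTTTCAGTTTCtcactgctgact
Ifit3: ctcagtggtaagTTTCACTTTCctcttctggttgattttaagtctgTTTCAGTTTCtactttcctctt
Rsad2: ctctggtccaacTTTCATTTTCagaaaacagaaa
Bst2: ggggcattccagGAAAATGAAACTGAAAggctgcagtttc
Stat2: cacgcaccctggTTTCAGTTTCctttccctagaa
They lie at chr19:34640773-34640825 (plus strand), chr19:34583361-34583428 (plus strand), chr12:26456551-26456584 (minus strand), chr8:71537575-71537614 (minus strand) and chr10:128270264-128270297 (plus strand). The copy nearest to the start began 85 bases before it in Ifit1, 122 in Ifit3, 120 in Rsad2, 124 in Bst2 and 222 in Stat2. In a wider list of genes of the interferon pathway, 47 of the 121 with a promoter in the table held the ISRE core.

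Values are FPKM, fragment numbers scaled to the length of the transcript and the size of the library. The label of genotype held in all libraries: Plod1 was at 22.8 FPKM or more in the 10 WT mice and at 0.0415 or less in the 10 Plod1-/- mice. Smooth muscle markers (7 genes) were detected in every library, with summed levels of 2298 FPKM or more. Xist, the RNA that coats the inactive X chromosome of female cells, reached 15.1 FPKM in saline-treated Plod1-/- replicate 5 and 7.93 in Ang II-treated Plod1-/- replicate 1, against 0.0328 or less in the other 18 libraries, and results are given with and without this pair of libraries where it matters. Ang II-treated Plod1-/- replicate 1 also stood apart from its group in marker levels, with 16762 FPKM of smooth muscle markers against 2298 to 6162 in replicates 2 to 5. Read counts were not used here, so depth is unknown in absolute terms; relative depth, read off the steps between low FPKM values, was 0.903 to 1.09.

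The most prominent feature of the 9 genes was how unevenly the Ang II-treated Plod1-/- mice expressed them. Replicate 3 of this group had the highest FPKM of all 20 mice for all 9 members, and replicate 5 was next within the group for 8 of them, while replicate 2 was the lowest for 6. The mean log2(FPKM + 1) over the members was 2.56, 2.30, 4.70, 2.96 and 3.72 in replicates 1 to 5. In WT mice it ran from 2.02 to 2.37 under saline and from 1.93 to 2.79 under Ang II, and in saline-treated Plod1-/- mice from 2.13 to 2.84. Only replicates 3, 4 and 5 of the Ang II-treated Plod1-/- mice lay above all 15 mice of the other groups, and replicate 2 lay within each of the other ranges. Across the 13263 genes that reached 1 FPKM in 5 or more of the 20 mice, replicate 3 was the highest of all mice for 11.6%, and the highest of its own group of 5 for 18.0%. The SD of log2(FPKM + 1) within the Ang II-treated Plod1-/- group was 1.34 for Ifit3, 1.19 for Ifit1 and 1.17 for Oasl2, against a median of 0.28 over all these genes. That SD ranked above 84.7% of genes for Bst2, the lowest of the members, and above 99.2% for Ifit3.

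**Figure D1:**
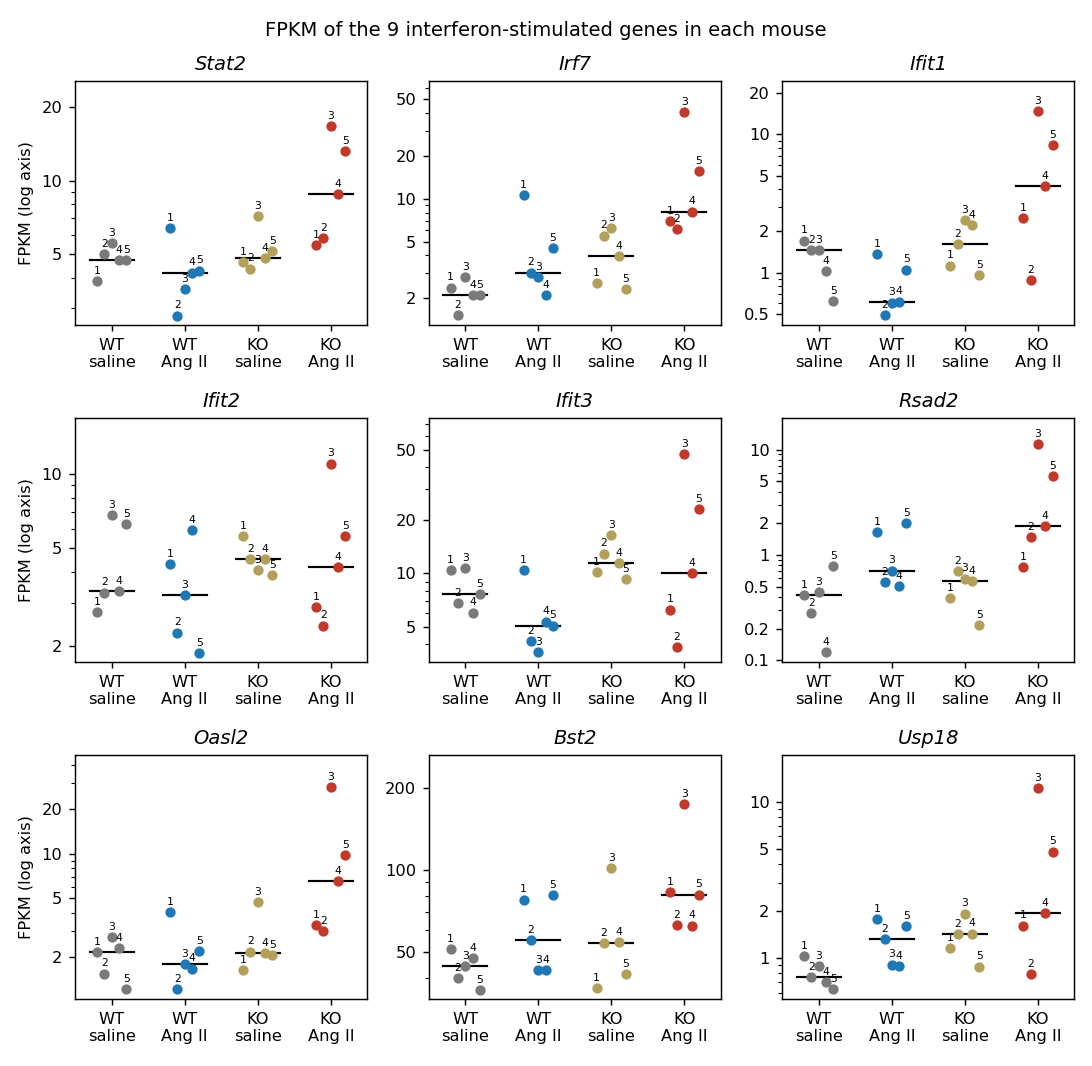
FPKM (log axis, different in each panel) of each member in each mouse, with the replicate number beside the point and the group median as a line; WT is wild type and KO is Plod1-/-. Replicate 3 of the Ang II-treated KO group is the highest point in all 9 panels, and the 5 mice of that group spread more widely than the others for most genes.

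The test was limma on log2(FPKM + 1), which understates the change of genes with low FPKM. It covered genes that reached 1 FPKM in 5 or more of the mice compared, and a gene was called when its Benjamini-Hochberg adjusted p-value over all genes tested was below 0.05 and its log2 change above 1 in size. Members under this filter were compared with a two-sided exact permutation test, whose smallest p with 5 mice against 5 is 0.00794.

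Ang II against saline in Plod1-/- mice called 1 of the 8 members that passed the filter, Irf7, against 13.9% of all genes called and 8.38% called higher. All 8 log2 changes were positive, as were 54.6% of those of all genes, and with quantile normalization 6 of the 8 were. The median log2 change of the 8 was 0.75, against 0.05 over 12333 genes. Oasl2, Stat2 and Ifit1 came next by adjusted p, from 0.0524 to 0.0965, and the log2 changes of Ifit2 and Ifit3 were near 0. Rsad2, low in the saline group and below the filter, was the only member whose groups did not overlap, which 14.2% of all genes tested also showed in the upward direction.

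Stat2, on chromosome 10 of GRCm38 from 128270559 to 128292849, supplies the transactivating subunit of the complex that binds the ISRE. The 5 saline-treated Plod1-/- mice, given here and below as replicates 1 to 5, had 4.65, 4.36, 7.18, 4.82 and 5.15 FPKM, and the 5 given Ang II had 5.46, 5.82, 16.7, 8.77 and 13.2. The corresponding WT values were 3.89, 5.01, 5.53, 4.74 and 4.74 without and 6.39, 2.80, 3.61, 4.21 and 4.28 with Ang II. Replicates 3, 4 and 5 of the Ang II-treated Plod1-/- mice stood above all 15 mice of the other groups, and replicates 1 and 2 lay within the range of those 15 mice. In Plod1-/- mice Stat2 had a log2 change with Ang II of 0.72 (limma adjusted p = 0.0533, SE 0.27). Under Ang II the difference between genotypes was 0.99 (SE 0.29, limma adjusted p = 0.0270), just under the fold limit and hence not called. It passed both criteria at 1.15 (adjusted p = 0.0113) without Ang II-treated Plod1-/- replicate 1, the only library with Xist in this comparison. The adjusted p over the leave-one-out fits of that difference ran from 0.0113 to 0.0682.

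Irf7, on chromosome 7 from 141262706 to 141266481, is the transcription factor that amplifies type I interferon production. Plod1-/- mice on saline had, for Irf7, 2.55, 5.50, 6.19, 3.94 and 2.32 FPKM, against 6.99, 6.14, 40.6, 8.13 and 15.6 on Ang II. For WT mice the levels were 2.38, 1.53, 2.82, 2.12 and 2.11 on saline and 10.5, 3.03, 2.83, 2.104 and 4.48 on Ang II. All 5 Ang II-treated Plod1-/- mice were above 6 FPKM, replicate 3 by far the highest, and the lowest of them, replicate 2, was just under the highest saline-treated Plod1-/- mouse. Replicate 1 of the Ang II-treated WT mice was also high and exceeded replicates 1, 2 and 4 of the Ang II-treated Plod1-/- mice. The log2 change with Ang II in Plod1-/- mice was 1.41 (SE 0.46, limma adjusted p = 0.0294), and 4 of the 5 treated mice were above every untreated one. The call was lost without Ang II-treated replicate 3 (log2 change 0.99, adjusted p = 0.0308) or replicate 5 (1.32, 0.0618), and without saline-treated replicate 1 (1.30, 0.0684), 4 (1.41, 0.0545) or 5 (1.27, 0.0697). The 10 leave-one-out fits gave adjusted p-values of 0.0196 to 0.0697, and 5 of them kept the call. Under Ang II, Irf7 differed between genotypes by 1.38 (SE 0.50, adjusted p = 0.0563), and in WT mice its change with Ang II was 0.65 (SE 0.30, adjusted p = 0.09995). Exons of Irf7 overlap those of Phrf1, a gene on the opposite strand that reached 7.74 FPKM, and the kit does not mark strand, so the values of Irf7 carry this uncertainty.

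Ifit1, Ifit2 and Ifit3 lie within 99316 bases of chromosome 19, together with Ifit3b, and encode proteins that bind viral RNA or block its translation. The level of Ifit1 was 1.12, 1.61, 2.41, 2.22 and 0.954 FPKM in Plod1-/- mice given saline and 2.48, 0.885, 14.7, 4.25 and 8.41 in those given Ang II. WT mice had 1.71, 1.46, 1.46, 1.02 and 0.620 and 1.36, 0.494, 0.607, 0.617 and 1.05, respectively. Ifit1 was low in all WT mice, in the saline-treated Plod1-/- mice and in Ang II-treated Plod1-/- replicate 2. Of the 5 Ang II-treated Plod1-/- mice, 4 were above every mouse of the Ang II-treated WT group. Replicate 1, at 2.48 FPKM, was only just above the highest saline-treated Plod1-/- mouse, at 2.41. Under Ang II it was higher in Plod1-/- than in WT mice by 1.61 on the log2 scale (SE 0.48, limma adjusted p = 0.0264). This call was lost without WT replicate 2 (1.55, adjusted p = 0.0619) or 3 (1.57, 0.0622) and without Plod1-/- replicate 4 (1.63, 0.0546) or 5 (1.42, 0.0614), within a range of 0.00643 to 0.0622 over the 10 fits. Without Plod1-/- replicate 3 the difference was smaller and still called (1.24, adjusted p = 0.0494). Ang II against saline in Plod1-/- mice gave 1.08 (SE 0.49, adjusted p = 0.0965).

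Ifit3 had the largest SD on the log2 scale among the members in Ang II-treated Plod1-/- mice. The 5 saline-treated Plod1-/- mice had 10.2, 12.9, 16.4, 11.4 and 9.28 FPKM, and the 5 given Ang II had 6.26, 3.85, 47.2, 10.0005 and 23.0. The corresponding WT values were 10.5, 6.82, 10.7, 6.01 and 7.66 without and 10.4, 4.15, 3.59, 5.35 and 5.08 with Ang II. Among the Ang II-treated Plod1-/- mice, replicates 3 and 5 were above and replicates 1 and 2 below every saline-treated Plod1-/- mouse, so that the log2 change with Ang II was 0.08 (SE 0.54, limma adjusted p = 0.920). It was -0.38 without replicate 3. Under Ang II the genotypes differed by 1.09 (SE 0.55, adjusted p = 0.153). Ifit3b, a near-identical neighbour that reached 9.14 FPKM, may share reads with Ifit3.

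Plod1-/- mice on saline had, for Ifit2, 5.59, 4.50, 4.08, 4.53 and 3.88 FPKM, against 2.87, 2.42, 11.04, 4.19 and 5.60 on Ang II. For WT mice the levels were 2.75, 3.29, 6.81, 3.35 and 6.26 on saline and 4.30, 2.27, 3.22, 5.93 and 1.88 on Ang II. The groups overlapped throughout, and outside replicate 3 of the Ang II-treated Plod1-/- mice no mouse exceeded 6.81 FPKM. Ifit2 was not called in any of the 5 comparisons, with log2 changes from -0.29 in WT mice with Ang II (SE 0.28, limma adjusted p = 0.408) to 0.38 between genotypes under Ang II (SE 0.35, adjusted p = 0.424).

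Rsad2, on chromosome 12 from 26442746 to 26456452, encodes viperin, an enzyme that makes a chain-terminating nucleotide. The level of Rsad2 was 0.388, 0.699, 0.597, 0.566 and 0.214 FPKM in Plod1-/- mice given saline and 0.772, 1.47, 11.3, 1.88 and 5.61 in those given Ang II. WT mice had 0.418, 0.281, 0.442, 0.120 and 0.778 and 1.65, 0.556, 0.709, 0.507 and 1.998, respectively. All 5 Ang II-treated Plod1-/- mice exceeded all 5 given saline, although replicate 1 did so by little. The difference in mean log2(FPKM + 1) was 1.43, with an exact permutation p of 0.00794, the smallest possible. The difference stayed above 1 in size in each of the 10 leave-one-out tests, with the lowest, 1.03, without Ang II-treated replicate 3. The exact permutation p there was at most 0.0317, but groups that do not overlap stay apart without any 1 mouse. These p-values are not adjusted and add little to the test on all mice. With no filter on low values, where limma tested it, Rsad2 was not called (1.43, adjusted p = 0.0707). In WT mice the difference with Ang II was 0.52 (exact permutation p = 0.0476), with replicates 1 and 5 of the treated mice above all untreated ones. Between genotypes under Ang II it was 1.00 (SE 0.48, limma adjusted p = 0.131), and WT replicates 1 and 5 were above Plod1-/- replicates 1 and 2.

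Oasl2, on chromosome 5 from 114896936 to 114912234, encodes an oligoadenylate synthetase-like protein. The 5 saline-treated Plod1-/- mice had 1.62, 2.18, 4.73, 2.12 and 2.07 FPKM, and the 5 given Ang II had 3.31, 3.001, 28.3, 6.55 and 9.85. The corresponding WT values were 2.17, 1.55, 2.75, 2.30 and 1.21 without and 4.05, 1.22, 1.79, 1.67 and 2.19 with Ang II. Replicates 3, 4 and 5 of the Ang II-treated Plod1-/- mice were above all other mice, replicates 1 and 2 were not, and replicate 3 of the saline-treated Plod1-/- mice was the highest in its group. Under Ang II, Oasl2 was higher in Plod1-/- than in WT mice by 1.46 on the log2 scale (SE 0.49, limma adjusted p = 0.0421). The call was kept in 3 of the 10 leave-one-out fits, those without WT replicate 1, Plod1-/- replicate 1 or Plod1-/- replicate 2. Without WT replicates 2, 3, 4 and 5 in turn the difference was 1.34, 1.42, 1.41 and 1.47, with adjusted p-values of 0.0956, 0.0880, 0.0672 and 0.0758. Without Plod1-/- replicates 3, 4 and 5 in turn it was 1.00, 1.49 and 1.36, with adjusted p-values of 0.0558, 0.0745 and 0.0873. Ang II against saline in Plod1-/- mice gave 1.30 (SE 0.49, adjusted p = 0.0524), and it was called without saline-treated replicate 3 (1.49, adjusted p = 0.0452), Ang II-treated replicate 1 (1.54, 0.0247) or Ang II-treated replicate 2 (1.57, 0.0262). The 10 leave-one-out adjusted p-values of this change ran from 0.0247 to 0.108, and without both libraries with Xist it was 1.502 (adjusted p = 0.0499).

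Bst2, on chromosome 8 from 71534255 to 71537456, encodes tetherin, which holds budding viruses at the cell surface, and it had the highest FPKM of the 9. Plod1-/- mice on saline had, for Bst2, 36.8, 53.8, 102, 54.2 and 41.4 FPKM, against 82.9, 62.7, 175, 62.4 and 81.2 on Ang II. For WT mice the levels were 51.3, 40.1, 44.2, 47.3 and 36.1 on saline and 77.9, 55.2, 42.7, 42.9 and 81.0 on Ang II. Replicate 3 was the highest mouse of each Plod1-/- group. With replicate 3 of both groups set aside, Plod1-/- levels were 62.4 to 82.9 FPKM with Ang II and 36.8 to 54.2 without, and did not overlap. The treated and untreated WT mice overlapped. The log2 change of Bst2 with Ang II in Plod1-/- mice was 0.66 (limma adjusted p = 0.127, SE 0.33). In WT mice the value was 0.40 (adjusted p = 0.122, SE 0.20). The Plod1-/- change was 0.89 without saline-treated replicate 3 (adjusted p = 0.0372), under the fold limit. It was 0.40 without Ang II-treated replicate 3 (adjusted p = 0.267), and none of the 10 leave-one-out fits called it.

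Usp18, on chromosome 6 from 121245906 to 121270917, removes the ubiquitin-like protein Isg15 from its targets and restrains signalling from the interferon receptor. The level of Usp18 was 1.16, 1.42, 1.92, 1.43 and 0.882 FPKM in Plod1-/- mice given saline and 1.61, 0.794, 12.2, 1.93 and 4.79 in those given Ang II. WT mice had 1.03, 0.755, 0.885, 0.707 and 0.632 and 1.77, 1.32, 0.908, 0.887 and 1.60, respectively. Replicates 3 and 5 of the Ang II-treated Plod1-/- mice stood above all others, and replicate 2 was the lowest Plod1-/- mouse of either treatment. The log2 change with Ang II was 0.78 in Plod1-/- mice (SE 0.46, limma adjusted p = 0.190). In WT mice, where the gene was below the filter, the difference was 0.34 (exact permutation p = 0.0317). Under saline it was 0.38 higher in Plod1-/- than in WT mice (SE 0.12, adjusted p = 0.0765), with 4 of 5 mice above every WT mouse. Exons of Usp18 overlap Gm44148, a non-coding gene on the opposite strand that reached 2.19 FPKM.

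**Figure D2:**
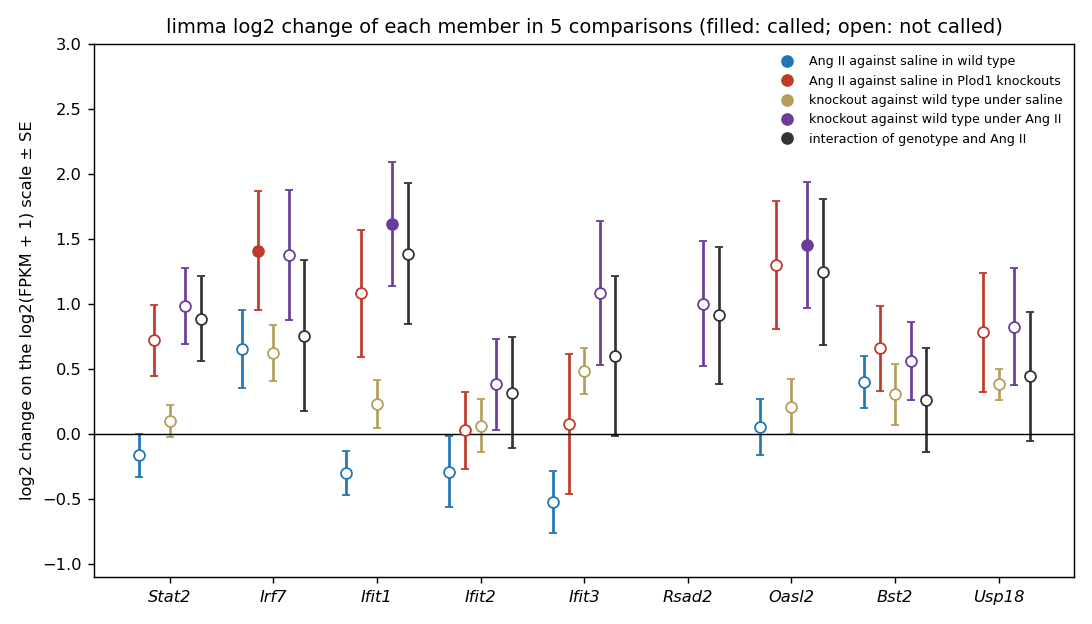
Log2 change with its standard error (SE) from limma for each member, on the log2(FPKM + 1) scale, in 5 comparisons of 5 mice per group; filled points were called. Filled points are Irf7 with Ang II in Plod1-/- mice and Ifit1 and Oasl2 between genotypes under Ang II, and Rsad2 (3 comparisons) and Usp18 (WT mice) have no point where they were below the filter.

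In WT mice, Ang II against saline called none of the 7 members tested with limma, against 8.66% of all genes, and none of the 7 had an unadjusted p below 0.05, against 50.4% of all genes. The median log2 change of the 7 was -0.17, against -0.14 over all genes, and 3 of the 7 were positive, against 37.9% of all genes. Ifit3 had the lowest value of the 7, -0.52 (SE 0.24, limma adjusted p = 0.1002), and Irf7 the highest. Rsad2 and Usp18, below the filter, were higher with Ang II by 0.52 and 0.34. Their exact permutation p-values, not adjusted, were 0.0476 and 0.0317. Replicate 1 of the Ang II-treated WT mice was the highest of its group for 6 of the 9 members.

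Under Ang II, Plod1-/- against WT mice gave 2 called members of 9 tested, Ifit1 and Oasl2, against 11.1% of all genes called and 7.45% called higher. All 9 log2 changes were positive, as were 60.0% of those of all genes, and the median was 1.00 against 0.12. Of the libraries with Xist, only Ang II-treated Plod1-/- replicate 1 is in this comparison. Without it 5 members were called: Ifit1, Oasl2, Irf7, Stat2 and Rsad2. This mouse also stood apart from its group in smooth muscle markers, and which trait goes with the gain was not tested. Without replicate 3 of the Plod1-/- mice 1 was called, Ifit1, and 0 were called without WT replicate 2 or 3 or Plod1-/- replicate 4 or 5.

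Under saline, none of the 8 members tested was called between genotypes, against 0.767% of all genes, and 3 of the 8 had an unadjusted p below 0.05, namely Usp18, Irf7 and Ifit3, against 27.1% of all genes. All 8 log2 changes were positive, against 49.0% of those of all genes, with a median of 0.27 against -0.0072. Irf7 had the largest, 0.62 (SE 0.22, limma adjusted p = 0.0989). Replicate 3 of the saline-treated Plod1-/- mice was the highest of its group for 7 of the 9 members, and the log2 change of Bst2 fell from 0.30 to 0.08 without it.

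The interaction of genotype and Ang II, fitted on all 20 mice, called none of the 9 members, against 16.1% of all genes, and 3 had an unadjusted p below 0.05, against 47.6% of all genes. All 9 values were positive, against 57.7% of all genes, with a median of 0.76 against 0.12. The values nearest the threshold were Stat2 at 0.89 (SE 0.33, limma adjusted p = 0.0407), Ifit1 at 1.39 (SE 0.54, adjusted p = 0.0512) and Oasl2 at 1.25 (SE 0.56, adjusted p = 0.0868). Stat2 passed the adjusted p but not the fold limit, as part of 37.8% of all genes with an adjusted p below 0.05, and it was called without the libraries with Xist (1.05, adjusted p = 0.0175). These comparisons share groups: the Ang II-treated Plod1-/- mice enter 3 of the 5.

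**Figure D3:**
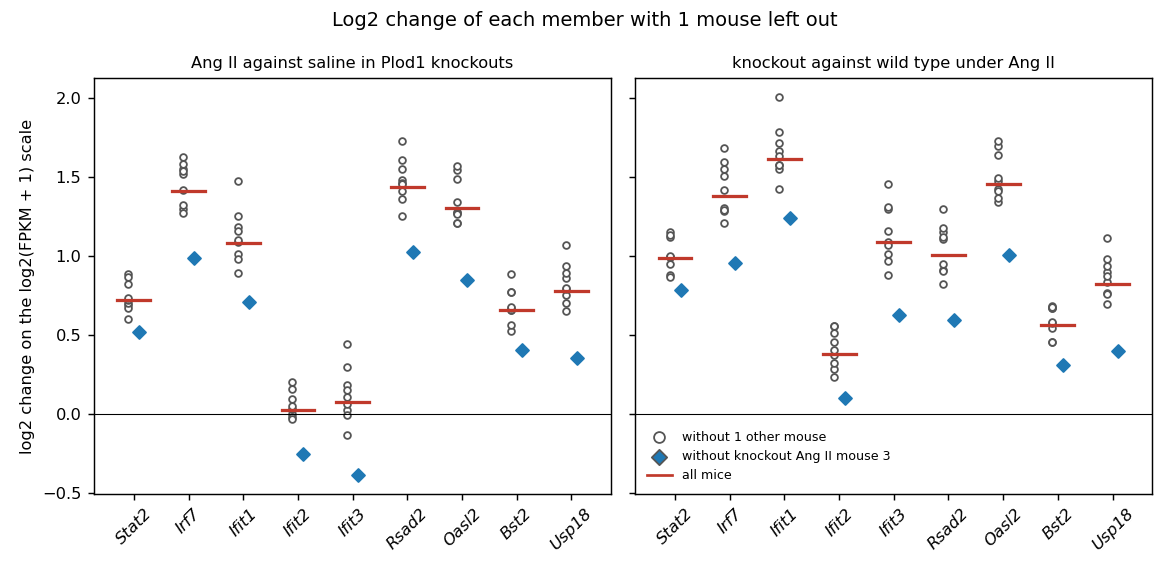
Difference in mean log2(FPKM + 1) for each member with all mice (line), without replicate 3 of the Ang II-treated Plod1-/- mice (diamond) and without each of the other mice in turn (circles), in 2 comparisons. The diamond is the lowest point for every member, and with Ang II in Plod1-/- mice it lies below 0 for Ifit2 and Ifit3.

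The wider list held 149 other genes of the interferon pathway, of which 145 were in the files. The 18 interferon genes in the files were Ifnb1, Ifna2, Ifna4, Ifna5, Ifna6, Ifna7, Ifna9, Ifna12, Ifna13, Ifna14, Ifna15, Ifnab, Ifne, Ifnk, Ifnz, Ifng, Ifnl2 and Ifnl3. None of them was tested in any comparison, as the highest FPKM was 0.676, for Ifng in saline-treated Plod1-/- replicate 3, and 0.363 for the rest. Ifnb1 was listed above 0 in 1 mouse, in Ang II-treated Plod1-/- replicate 2 (0.0448 FPKM). That replicate was the mouse of its group with the lowest mean member level, but a value this low rests on few fragments, and no link was tested.

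With Ang II in Plod1-/- mice, 28 of 98 wider genes tested were called higher and none lower, against the 8.38% and 5.51% of all genes. In WT mice 3 of 89 were called higher, Lgals3bp, Ifi27 and Ifi27l2a, and none lower, against 6.38% and 2.28%. Between genotypes under Ang II, 22 of 101 were called higher and 1, Ifi27, lower, against 7.45% and 3.67%. Under saline none of 89 was called, with 23 at an unadjusted p below 0.05, against the 27.1% of all genes. The interaction called 18 of 104 higher and 1, Ifi27, lower, against 9.69% and 6.36%. Ifi27 encodes a small interferon-induced membrane protein. Its FPKM under Ang II was 536, 830, 591, 265 and 728 in WT and 177, 216, 202, 156 and 258 in Plod1-/- mice, with every WT mouse higher than every Plod1-/- mouse. The 8 adipocyte markers summed to 3038, 5263, 3549, 807 and 4364 FPKM in those WT mice, the same order as Ifi27. In the Plod1-/- mice given Ang II they summed to 303, 2298, 369, 638 and 1215, an order that differed from that of Ifi27. Plod1-/- replicate 2, with 2298 FPKM of these markers, had less Ifi27 than WT replicate 4, with 807. In WT mice 7 of the 7 adipocyte markers tested were called higher with Ang II, and their part in the level of Ifi27 was not tested.

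Ifnar1, a receptor chain of type I interferons, had 6.34, 5.97, 5.89, 6.65 and 6.63 FPKM without and 6.93, 12.01, 15.3, 16.4 and 14.0 with Ang II in Plod1-/- mice, with a log2 change of 0.88 (SE 0.19, limma adjusted p = 0.00378), under the fold limit. Its partner Ifnar2 had a log2 change of 0.67 (adjusted p = 0.0279) and Jak1 one of 0.66 (adjusted p = 0.0188), also under that limit. The interferon gamma receptor chains Ifngr1 and Ifngr2 had log2 changes of 0.76 (adjusted p = 0.0370) and 0.08 (adjusted p = 0.7097). Of the 5 receptor genes tested, only Il10rb, the shared chain of the lambda interferon and interleukin 10 receptors, was called (1.04, SE 0.23, adjusted p = 0.00423). Irf9, which binds DNA together with Stat2, had a log2 change of 0.37 (adjusted p = 0.199), and Tyk2 one of -0.033 (adjusted p = 0.885). Of the 12 JAK-STAT and IRF genes, 3 were called: Socs3, a feedback inhibitor of cytokine receptors (3.60, SE 0.37, adjusted p = 6.51e-05), Irf8 (2.02, adjusted p = 0.00426) and Irf5 (1.99, adjusted p = 0.00358), transcription factors of myeloid cells. Jak2, Irf1, Irf2 and Socs1 were not called, with adjusted p-values from 0.148 to 0.951. Irf3, which switches on interferon genes after nucleic acid sensing, had a log2 change of -0.49 (SE 0.11, adjusted p = 0.00485), under the fold limit.

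Among nucleic acid sensors and their adaptors 5 of 14 were called higher with Ang II in Plod1-/- mice: Tmem173, which encodes STING (2.33, limma adjusted p = 0.000231), Tlr7 (2.08, adjusted p = 0.00131), Zbp1 (1.52, adjusted p = 0.0294), Dhx58 (1.09, adjusted p = 0.0477) and Myd88 (1.08, adjusted p = 9.76e-05). Among other antiviral effectors 18 of 51 were called higher, led by Slfn2 (3.45, adjusted p = 0.000489), Slfn1 (3.19, adjusted p = 0.000753), Ifitm1 (2.55, adjusted p = 0.000332) and Ifi204 (2.48, adjusted p = 0.000569). The other called effectors were Epsti1, Ifi205, Ifi207, Ifi211, Ifi27l2a, Isg20, Lgals3bp, Oas1a, Oas2, Slfn5, Slfn8, Trim25, Trim30a and Ube2l6, with log2 changes from 1.19 for Ube2l6 to 2.14 for Ifi211. Between genotypes under Ang II the 22 genes called higher included Irf5, Irf8, Socs1, Socs3, Tlr7, Tmem173, Zbp1, Apol9a, Apol9b, Epsti1, Ifi204, Ifi207, Ifi211, Ifitm1, Ifitm3, Isg15, Slfn1, Slfn2, Slfn8, Trim30a and Ube2l6, with log2 changes from 1.01 for Ifitm3 to 3.54 for Socs3. Of the genes more typical of interferon gamma, 1 of 16 was called with Ang II in Plod1-/- mice, against 8.38% of all genes called higher. It was the immunoproteasome subunit Psmb8 (1.16, limma adjusted p = 0.0230). Between genotypes under Ang II, 0 of 16 were called. Isg15, the ubiquitin-like protein that Usp18 removes, reached 15.9, 4.71, 85.2, 12.02 and 27.9 FPKM in the 5 Plod1-/- mice given Ang II, the same 2 mice leading as for most members, and its log2 change with Ang II was 1.54 (SE 0.59, adjusted p = 0.0562).

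**Figure D4:**
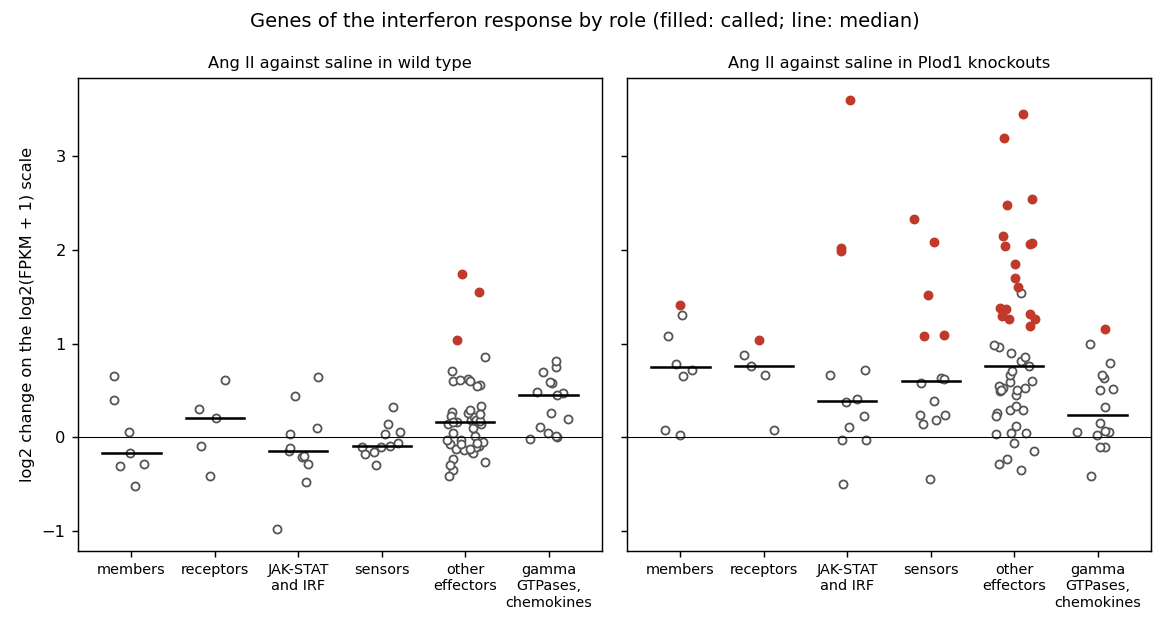
Log2 change with Ang II of the members and of other genes of the interferon pathway by role, on the log2(FPKM + 1) scale, in WT (left) and Plod1-/- mice (right); filled points were called and the line is the median of the genes tested. In Plod1-/- mice 28 of the 98 other genes are filled, and in WT mice 3 of 89.

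The genes whose levels followed the members most closely over the 20 mice were ranked by Pearson's r with the mean log2(FPKM + 1) of the members, as a description. Among 13254 other genes they were Xaf1 (r = 0.960, Spearman's rho = 0.905), Rnf213 (r = 0.954), Rtp4 (r = 0.949), Slfn8 (r = 0.949) and Dhx58 (r = 0.941), all on the wider list. With replicates 3 and 5 of the Ang II-treated Plod1-/- mice left out, r was 0.853 for Xaf1 and 0.688 for Dhx58. After group means were taken off, the highest were Slfn8 (r = 0.959), Xaf1 (0.953), Ifit3b (0.949), Rnf213 (0.944) and Ifi209 (0.942). Of the 104 wider genes that reached 1 FPKM in 5 or more mice, 70 (67.3%) were highest of all 20 mice in Ang II-treated Plod1-/- replicate 3, against 11.6% of all genes. A further 12 were highest in saline-treated Plod1-/- replicate 3, against 2.46% of all genes, and Irf1 was 25.4 FPKM there against 9.58 or less in its group mates.

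Markers of immune and other cell types moved with the groups. The 9 macrophage markers summed to 584, 1888, 2853, 2150 and 1462 FPKM in replicates 1 to 5 of the Ang II-treated Plod1-/- mice, and to at most 346 in Plod1-/- mice on saline. Among WT mice on Ang II the highest sum was 1141. All 9 were called higher with Ang II in Plod1-/- mice, and none of the 9 was at 0 throughout a group. Replicate 2, with the lowest mean member level, had 1888 FPKM of these markers, more than replicate 5, whose member level was the next to highest. The 7 neutrophil markers summed to 157 to 726 FPKM in this group and to at most 3.06 in saline-treated Plod1-/- mice, and the 6 monocyte markers to 54.2 to 435 against at most 36.3. The 6 red blood cell markers, all detected in this group, summed to 1606, 764, 9718, 2394 and 3058 FPKM in replicates 1 to 5, which gives the mice the same order as their mean member level. They also stood at 1524 FPKM in saline-treated Plod1-/- replicate 3, against 60.0 to 167 in its group mates, but at 1444 in saline-treated WT replicate 5, whose mean member level was 2.08. The part of these cells in the levels of the members was not tested. Of the markers of plasmacytoid dendritic cells, a main source of type I interferon, Siglech, Ccr9, Klk1, Spib and Pacsin1 were at most 0.386, 0.222, 0.172, 0.761 and 1.79 FPKM, and Cox6a2, a gene that striated muscle also expresses, reached 13.5. The 6 summed to 1.67 to 8.82 FPKM in the Ang II-treated Plod1-/- mice and to at most 14.04 in the saline-treated ones, and none was at 0 throughout a group. The 7 smooth muscle markers summed to 2298 to 16762 FPKM in the Ang II-treated Plod1-/- mice, against 15030 to 20706 under saline. The 6 fibroblast markers summed to 934 to 5472 FPKM in the Ang II-treated Plod1-/- mice, against 367 to 594 under saline and 422 to 864 in Ang II-treated WT mice. The 6 skeletal muscle markers summed to 11.2 to 89.7 FPKM in them and to 76.3 to 579 in Ang II-treated WT mice, and 3 of the 5 tested were called lower. The part of these cells, too, was not tested.

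**Figure D5:**
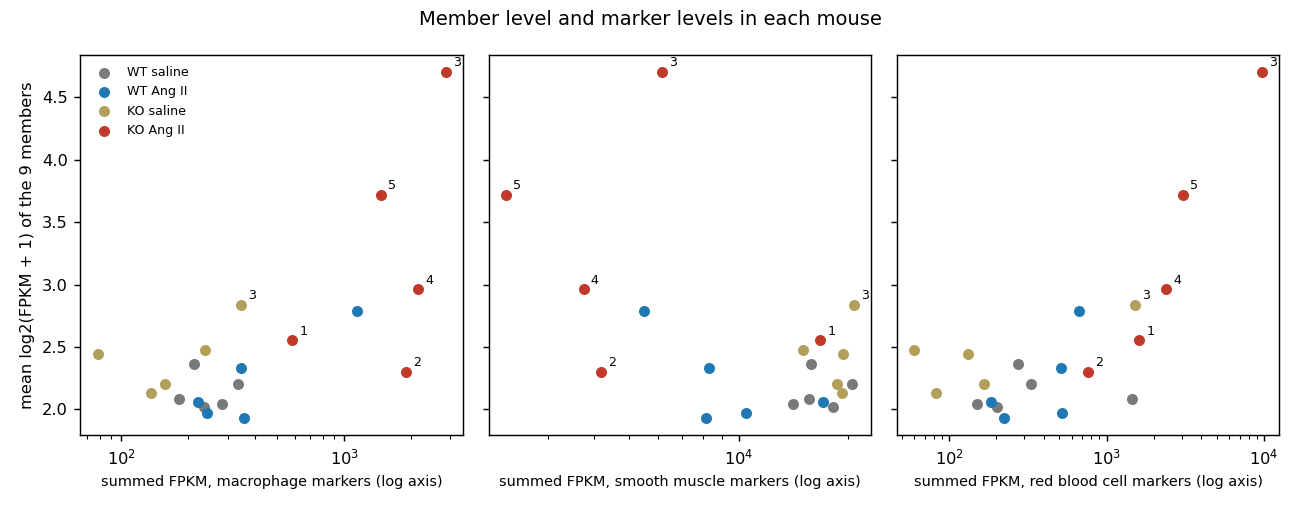
Mean log2(FPKM + 1) of the 9 members against the summed FPKM (log axes) of macrophage, smooth muscle and red blood cell markers in each of the 20 mice; numbers mark the replicates of the Ang II-treated KO mice and replicate 3 of the saline-treated KO mice. Replicate 2 of the Ang II-treated KO mice has 1888 FPKM of macrophage markers and a member mean of 2.30, and replicate 3 is highest for macrophage and red blood cell markers and for the members.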

How the data were processed

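The abdominal aortas of 20 mice were sequenced, with group and replicate number taken from the labels. Libraries came from a kit that does not mark strand. The deposited values are FPKM of 43422 Ensembl genes. By the study's methods, ribosomal reads were discarded before HISAT2 alignment, and FPKM came from stringtie, then cuffquant and cuffnorm with default settings. The submitters' processing notes name mm10, HISAT2 2.1.0, Bowtie2 2.2.3 and HTSeq 0.6.0. These tools differ from those of the methods, and which of them gave the deposited FPKM is not known. Symbols were given to 43226 genes from a list of gene names, and coordinates were taken from GENCODE release M21 on GRCm38, the same build as mm10. The edgeR test of the authors was not used, as FPKM are not counts.

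FPKM was transformed to log2(FPKM + 1), genes that reached 1 FPKM in 5 or more mice were kept, and limma 3.58.1 (R 4.3.3) with eBayes and a variance trend was run on the 10 mice of each comparison, or on all 20 for the interaction. P-values were adjusted by Benjamini-Hochberg over all genes tested, and the method was tested on simulated data. Members below the filter were compared by two-sided exact permutation tests. Described values used Python 3.11.15, numpy and pandas, and figures matplotlib 3.10.9.

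The members and gene lists were chosen with earlier results of these data known. All members are named; genes of the pathway lists could be named where called, and ligands, receptors and signalling genes in any case, apart from genes that are not reported here; the genes most like the members are the 5 with the highest Pearson's r, before and after group means were taken off. Ifit3b, Isg15, Irf1, Xist and markers are named beside the results they touch, after their values were seen. Alternatives are given in the closing section.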

Additional observations from a re-analysis of the deposited data

Results flagged for a closer look

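Within the groups of 5 mice, 2 of 36 combinations of member and group had an extreme mouse by Dixon's ratio (gap to the nearest mouse over the group's range, on log2(FPKM + 1), above 0.71), where chance gives about 1 in 20. Oasl2 was high in saline-treated Plod1-/- replicate 3, with a ratio of 0.753 (4.73 FPKM). Bst2 was high in Ang II-treated Plod1-/- replicate 3, with a ratio of 0.725 (175 FPKM). The change of Stat2 with Ang II differed between the genotypes by 0.89 on the log2 scale in the interaction term (limma adjusted p = 0.0407), with an adjusted p from 0.0114 to 0.0795 over the fits that leave out 1 mouse.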

How the results depend on the processing

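Of 927 values of single members under the alternatives, 840 kept their direction and their side of the threshold, 45 passed it and 23 lost it. The 19 that reversed belonged to values not called. With Ang II in Plod1-/- mice, Ifit2, at 0.03, was -0.11 with quantile normalization and -0.038 with mitochondrial genes left out, and -0.25 to 0.20 with 1 mouse left out. Ifit3 there was -0.025 with quantile normalization and -0.38 to 0.45 with 1 mouse left out. With Ang II in WT mice, Oasl2 was -0.042 with weights per mouse and -0.13 to 0.17 with 1 mouse left out. Between genotypes under saline, Ifit2 was -0.11 with weights and -0.056 to 0.21 with 1 mouse left out, and Stat2 -0.0044 to 0.15.

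The count of members called with Ang II in Plod1-/- mice was 0 with no filter on low values, 2 with a pseudocount of 0.1 or without the libraries with Xist, 3 with weights per mouse or with all 4 groups in one fit, and 0 to 3 with 1 mouse left out. Between genotypes under Ang II it was 0 with no filter, 1 with quantile normalization or with mitochondrial genes left out, and 5 with weights or all 4 groups in one fit. With 1 mouse left out it was 0 to 5, and 5 came without Ang II-treated Plod1-/- replicate 1. That mouse is the only library with Xist in this comparison. The wider genes called there were 13 with no filter and 14 to 30 with 1 mouse left out. The interaction called 2 members with a pseudocount of 0.1, 3 with weights, 1 by adjusted p alone, 1 without the libraries with Xist and 0 to 3 with 1 mouse left out, and 31 wider genes with weights and 14 to 27 with 1 mouse left out. Wider genes called in WT mice were 6 with a pseudocount of 0.1, 16 by adjusted p alone and 2 to 4 with 1 mouse left out. Under saline they were 3 by adjusted p alone and 0 to 1 with 1 mouse left out. With Ang II in Plod1-/- mice and 1 mouse left out, the wider count ran from 20, without Ang II-treated replicate 3, to 34. By adjusted p alone 38 were higher and 2 lower there, and the highest count over all alternatives was 40. The cause of these moves was not tested. The fit with no filter differs both in the number of genes adjusted for and in the variance trend fitted.

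No label pairs mice of the same replicate number, and the correlation of same-numbered mice ran from -0.37 to 0.43 over the comparisons. With Ang II in Plod1-/- mice it was 0.43 and 0.40 for replicates 2 and 3, each closest to its own number. For replicates 1, 4 and 5 it was -0.13, -0.08 and -0.16. Whether same-numbered mice shared a batch was not tested. With the replicate block, 2 members were called with Ang II in Plod1-/- mice, and 1 member and 12 wider genes between genotypes under Ang II. Quantile normalization moved the median log2 change of all genes from 0.05 to -0.09 with Ang II in Plod1-/- mice and from 0.12 to -0.04 between genotypes under Ang II, where all 9 members stayed positive. Members below 1 FPKM in a group, such as Rsad2, rest on few fragments, and the depth behind them is unknown.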
